A study of Mus musculus with 4 samples.

Results

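The replication-dependent histone genes were described in single mouse embryos at embryonic day 5.5, with and without Mettl14. Members were taken by name and by count: rows whose Ensembl identifier belongs to a protein-coding gene named Hist1h, Hist2h, Hist3h or Hist4h in GENCODE M21, with 10 or more read counts summed over the 4 libraries. GENCODE M21 holds 67 such genes, 65 had a row and 53 reached the count, out of 47885 rows in all and 19274 rows with that many counts. Of the other 12 rows, 8 held 0 counts. The threshold used counts of both groups, and all 53 members would have reached it on the WT libraries alone but 40 on the KO libraries alone, so every count over the members is given as a description. Nearest to the threshold, Hist1h2ba (a testis H2B) stood inside with 2, 8, 0 and 0 counts in WT replicates 1 and 2 and KO replicates 1 and 2, and Hist1h4m outside with 1, 3, 0 and 0. Values of the 4 libraries are always given in that order. By class the members were 6 genes for the linker histone H1, 12 for H2A, 13 for H2B, 10 for H3 and 12 for H4.

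The study compared 2 control embryos (WT, labelled Mettl14+/+) with 2 Mettl14-/- embryos (KO) of the C57BL/6 background, to ask what losing Mettl14 does in early development at a stage when mutants look like their littermates. Mettl14 is the partner of Mettl3 in the enzyme that writes N6-methyladenosine on RNA. One whole embryo made 1 library, by Smart-Seq v4 amplification of polyadenylated RNA, and was sequenced in paired reads. Genotypes came afterwards from a Mettl14 qPCR run on a portion of each amplified cDNA, per the labels' protocols, and an embryo with Mettl14 mRNA counted as a control, so heterozygous controls cannot be separated. The sources used here give neither the promoter or Cre behind the deletion nor the deleted exons.

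Replication-dependent histone genes supply the core and linker histones that package newly made DNA, and they are transcribed in S phase from clusters of small genes without introns. Their mRNAs end in a stem-loop in place of a poly(A) tail: the stem-loop binding protein Slbp holds the stem-loop, and the U7 small nuclear ribonucleoprotein directs the cut just after it. Polyadenylated forms arise when that cut is missed or in differentiated cells, and an oligo(dT) primer can also start inside an A-rich stretch. The libraries were made from polyadenylated RNA, so the counts below measure polyadenylated or internally primed histone transcripts and not all histone mRNA.

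The stem-loop is shown first because it decides which histone RNA a poly(A)-based library can see. The pattern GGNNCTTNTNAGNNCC, searched on the transcript's own strand in GENCODE M21 models, was found in 46 of the 67 histone genes and in 164 of 21951 protein-coding genes, or 0.747%. Among the members it was in 38 models, in 8 different sequences. The commonest, in 19 members, was that of Hist1h2ap, Hist1h3d and Hist1h1d. In the lines that follow capitals mark the stem-loop, lower case its flanks, and every sequence reads 5′ to 3′ on the strand of the gene in the mm10 (GRCm38) build.
Hist1h2ap, chr13:21833026-21833049, minus strand: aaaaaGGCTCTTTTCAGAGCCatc
Hist1h3d, chr13:23576239-23576264, plus strand: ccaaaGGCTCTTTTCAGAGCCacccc
Hist1h1d, chr13:23555782-23555807, plus strand: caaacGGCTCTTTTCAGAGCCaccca
Hist1h3c, chr13:23745042-23745067, minus strand: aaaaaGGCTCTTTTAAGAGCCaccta
Hist1h3g, chr13:23535884-23535909, plus strand: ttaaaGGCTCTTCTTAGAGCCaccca
Hist1h4d, chr13:23581945-23581970, plus strand: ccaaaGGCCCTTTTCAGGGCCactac
Hist1h4i, chr13:22040961-22040986, minus strand: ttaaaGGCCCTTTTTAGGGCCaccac
Hist1h4j, chr13:21735432-21735457, plus strand: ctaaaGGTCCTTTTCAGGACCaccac
The annotated models differ in what follows the stem-loop. The model of Hist1h2ap stops 3 bases after it, while those of Hist1h3d, Hist1h4d and Hist1h1d run on for 752, 770 and 4884 bases. Over the members, 16 models ended within 60 bases of the stem-loop, 22 ran further and 15 held no stem-loop. Among the last were Hist1h1a and Hist1h1b, whose models end 48 and 0 bases after the stop codon. In 11 members, all without a stem-loop in the model, 3 or fewer bases were annotated after the stop codon. A stem-loop past the end of a model could not be seen.

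Promoters are shown for the H3 member with the smallest p, an H1 member and the H4 member that went the other way. The 120 bases before the RefSeq start (GRCm38.p6) were searched on both strands for 3 motifs, which appear in capitals. TATAAA is the core of a TATA box, where the general transcription factors assemble on the promoter. The next motif, CCAAT, is bound by the factor NF-Y. The last, ATTTGCAT, is the octamer that Pou2f1 binds in H2B promoters.
Hist1h3d, chr13:23575643-23575762, plus strand: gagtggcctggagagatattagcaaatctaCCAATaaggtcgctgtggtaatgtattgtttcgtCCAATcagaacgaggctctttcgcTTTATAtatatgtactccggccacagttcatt
Hist1h1a, chr13:23763548-23763667, plus strand: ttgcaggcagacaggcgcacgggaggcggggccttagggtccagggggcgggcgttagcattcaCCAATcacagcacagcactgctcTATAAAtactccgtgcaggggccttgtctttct
Hist1h4d, chr13:23581448-23581567, plus strand: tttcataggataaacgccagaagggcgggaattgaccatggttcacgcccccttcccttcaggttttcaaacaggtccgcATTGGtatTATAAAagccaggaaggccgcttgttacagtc
RefSeq had a promoter for 47 members, of which 35 held CCAAT. The TATA motif was in 17 and the octamer in 4. Over all 27025 RefSeq promoters the shares were 22.1%, 6.76% and 0.818%, against 77%, 31.1% and 9.84% of the 61 histone promoters matched. Members with and without these motifs had similar medians, which were not tested against each other: the median log2 fold change (KO over WT, edgeR) was -1.90 in the 30 tested members with CCAAT and -1.63 in the 9 without, and -1.75 in the 16 with the TATA motif and -2.10 in the 23 without.

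Library totals ran from 16108062 to 28698541 counts, so that 1 count equalled 0.059 to 0.0359 CPM (counts divided by library size, after edgeR's TMM scaling). Mettl14 itself had 576, 592, 98 and 224 counts, a log2 fold change of -2.37 (SE 0.45, edgeR adjusted p = 0.274). The groups were set by Mettl14 mRNA in the same amplified cDNA, so this difference is no separate check of genotype. KO replicate 2 stood apart: on the first principal component, with 53.3% of the variance, it scored 109 and the other 3 libraries between -77.8 and -5.49. KO replicate 2 also had the most counts but the fewest genes with a count (21488, 19603, 21250 and 18346 genes in the 4 libraries). Values are therefore given in each library for the members named, and summed ratios for both KO embryos together and apart. At an adjusted p of 0.05, edgeR called 0% of the 15563 genes tested in either direction, and 7.82% had an unadjusted p under 0.05.

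The histone members together had lower CPM in both KO embryos than in either WT embryo. Their summed CPM was 411, 403, 271 and 151, that is 407 ± 5.25 in WT and 211 ± 84.7 in KO (SD, n = 2 each), a ratio of 0.52. The ratio was 0.66 for KO replicate 1 alone and 0.37 for KO replicate 2 alone, so the 2 KO embryos differed from each other by more than the WT embryos did. As a share of all counts the members took 0.0432%, 0.0375%, 0.0283% and 0.0146%. Relative to WT, H3 genes had the lowest summed CPM of the 5 classes in both KO embryos. The ratio was 0.20 for H3 (0.26 in KO replicate 1 and 0.14 in KO replicate 2), 0.38 for H1 (0.50 and 0.27) and 0.40 for H2B (0.46 and 0.33). The H2B sums of 58.5, 52.3, 25.5 and 18.4 CPM held 20.3, 13.8, 13.3 and 15.1 CPM from Hist1h2bc alone. Its groups overlapped, and the class order by sums depends on that gene. H2A at 0.71 (0.91 and 0.50) and H4 at 0.72 (0.94 and 0.49) were close to each other, and in both the 2 KO embryos differed by more than 1.5 times. In KO replicate 1 the summed H4 CPM, 53.7, lay between the 2 WT values of 67 and 47. Hist1h4d alone held 22.9, 14.5, 34.8 and 18.6 CPM of the H4 sums, so the H4 ratio and this overlap rest largely on 1 gene. In H2A most of each sum was Hist1h2ap, with 97.4, 106, 96.5 and 53.7 CPM. In polyadenylated whole-embryo RNA, fewer cells in S phase, less histone RNA per cell and a smaller tailed or internally primed part cannot be told apart.

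**Figure D1:**
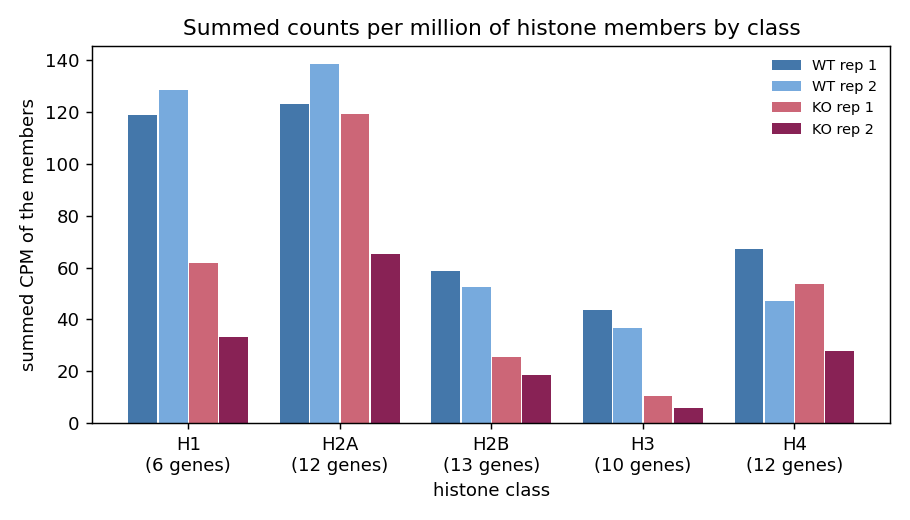
Summed CPM (y axis, from 0) of the histone members of each class (x axis, with the number of genes), 1 bar per library, with no averaging. In H1, H2A, H2B and H3 both KO bars stand below both WT bars. In H4 KO replicate 1 lies between the WT bars, with 34.8 CPM of its bar from Hist1h4d. In H3 the KO bars reach 10.6 and 5.81 CPM against 43.6 and 36.9.

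No single histone gene passed the test in edgeR's quasi-likelihood fit over all genes (0 of 45 tested members at an adjusted p of 0.05, lowest adjusted p = 0.274). Their fitted values lay mostly on 1 side. The log2 fold change was negative in 44 of the 45 tested members (52.3% of all tested genes) and positive in 1, with a median of -1.88 against -0.03 over all tested genes. An unadjusted p under 0.05 was reached by 18 tested members, all lower in KO, where 3.08% of all tested genes were. Both KO values lay below both WT values in 47 of the 53 members, against 18.7% of the rows with 10 or more counts, and above both in 0, against 18.6%. Among the 29 members with 100 or more counts, which the threshold shapes less, the number was 26, against 17.8% of all rows that deep. DESeq2, an alternative test, called 4 tested members lower, Hist1h1a, Hist1h1b, Hist1h2bp and Hist1h3d, against 0.602% of all genes called lower. The limma-voom test, RLE scaling, library totals, a filter of 50 counts in 2 libraries and removal of a GC and length trend called 0 members lower. Each of these fits also called 0% of all genes lower. In the other alternatives members called lower numbered 5 with no low-count filter (0.398% of all genes), 6 without KO replicate 1 (1.25%) and 3 with the replicate number as a block and a GC and length trend removed (0.527%). They numbered 0 with the block alone (0.122%) and 0 without WT replicate 1, WT replicate 2 or KO replicate 2 (0.157%, 0.00584% and 0.0951%).

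The KO embryos did not contribute equally. KO replicate 2 lay below KO replicate 1 in 43 of the 53 members (53.5% of rows) and below both WT embryos in 50 (39.7%), while KO replicate 1 lay below both WT embryos in 48 (30.5%). The median difference from the WT mean, on the log2 CPM scale, was -1.17 in KO replicate 1 and -2.73 in KO replicate 2, against 0.04 and -0.05 over all tested genes. Of the members, 11 had 0 counts in KO replicate 2 (10.8% of rows) and 4 in KO replicate 1 (4.54%), the same 4 having 0 in both. None had 0 counts in a WT library. Refitted without KO replicate 2, the median log2 fold change of the tested members was -1.23.

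**Figure D2:**
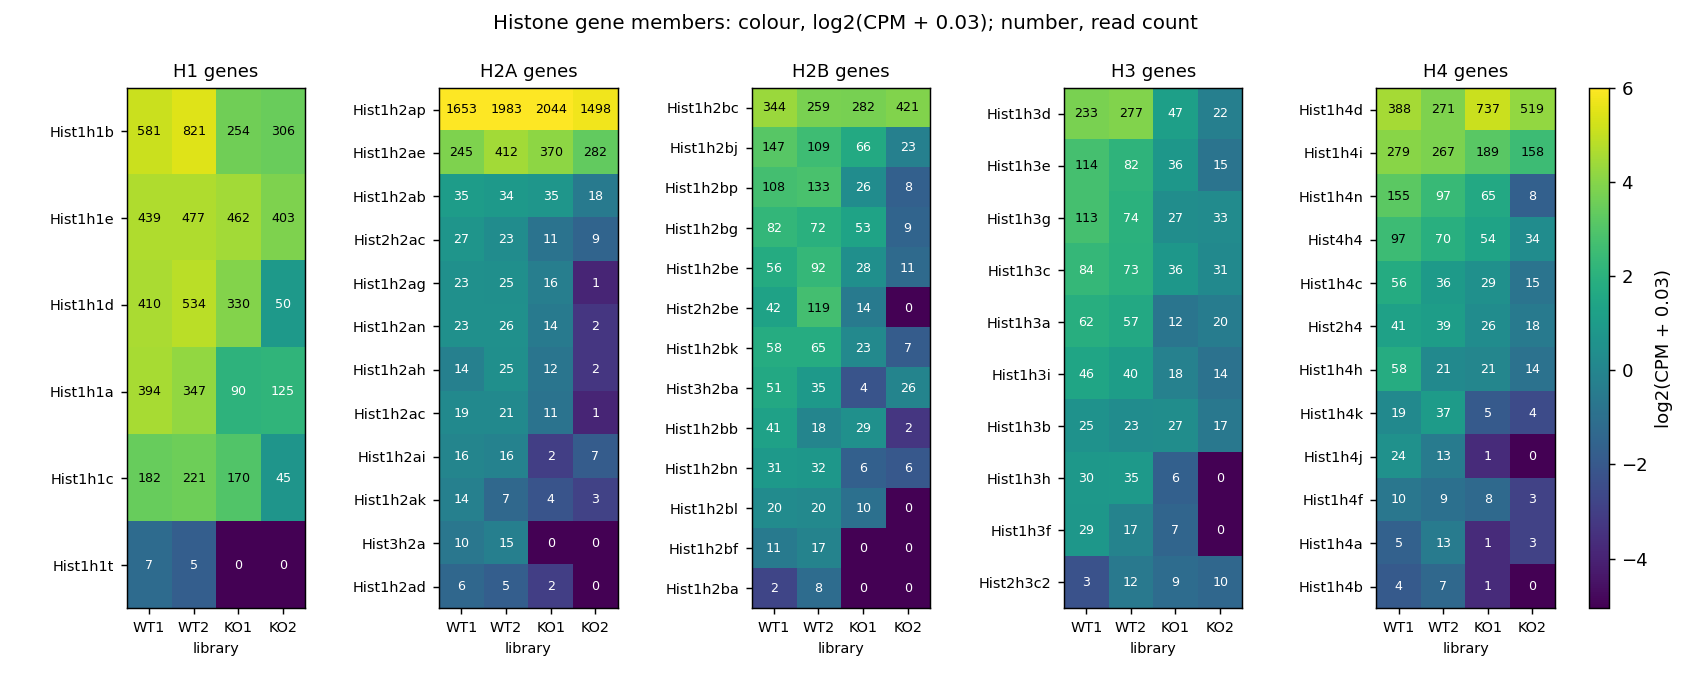
Read counts (numbers) and log2(CPM + 0.03) (colour) of all 53 members in the 4 libraries (x axis), grouped by histone class and ordered by mean CPM (y axis). The KO columns are darker in most rows, with Hist1h4d, Hist1h2ap, Hist1h2ae, Hist1h2bc and Hist1h1e among the rows that stay bright in all 4 libraries.

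The H1 genes encode linker histones, which bind where DNA enters and leaves the nucleosome. Hist1h1b (H1.5) had 581, 821, 254 and 306 counts, or 34.3, 43.9, 12 and 11 CPM. Both KO embryos stood at about the same level, well under both WT embryos, and the log2 fold change was -1.77 (SE 0.39, edgeR adjusted p = 0.303). Hist1h1a (H1.1) behaved alike, with 394, 347, 90 and 125 counts and a log2 fold change of -2.26 (SE 0.45, edgeR adjusted p = 0.274). For both genes the WT and KO libraries were far apart and the KO embryos close together. DESeq2 gave adjusted p = 0.00178 for Hist1h1a and 0.00563 for Hist1h1b, and over all alternatives the adjusted p ran from 0.00178 to 0.47 and from 0.00563 to 0.596.

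The other H1 genes split the KO embryos. Hist1h1d (H1.3) had 410, 534, 330 and 50 counts, and Hist1h1c (H1.2) had 182, 221, 170 and 45. In CPM these were 24.2, 28.5, 15.6 and 1.79 for Hist1h1d and 10.7, 11.8, 8.03 and 1.61 for Hist1h1c. In both genes KO replicate 1 was under both WT embryos and KO replicate 2 much further under. Their log2 fold changes of -1.61 and -1.23 therefore carried wide errors (SE 0.83 and 0.72), and without KO replicate 2 they were -0.75 and -0.48. Without KO replicate 1 they were -3.79 and -2.72, with edgeR adjusted p = 0.00452 and 0.0488, while over all alternatives the adjusted p reached 0.9999 for Hist1h1c and 0.9998 for Hist1h1d. Hist1h1e (H1.4), with 439, 477, 462 and 403 counts, differed least, by -0.50 (SE 0.40, edgeR adjusted p = 0.859). Its exons overlap Hist1h2be on the same strand, so part of its reads cannot be assigned. Hist1h1t, a testis linker histone, had 7, 5, 0 and 0 counts and was not tested. Taking 3 counts over the KO group as the floor and the WT counts as they stood, WT was 5.50 times that floor. The gene passed the count threshold through its WT counts only, so this ratio is a description.

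Among H2A genes 1 row held most of the counts. Hist1h2ap had 1653, 1983, 2044 and 1498 counts, or 97.4, 106, 96.5 and 53.7 CPM, and per kilobase of exon it was the most abundant member (183 CPM per kb, mean of 4 libraries, against 34 for Hist1h1b). KO replicate 1 lay just under WT replicate 1, and KO replicate 2 well under it. Its log2 fold change was -0.44 (SE 0.38, edgeR adjusted p = 0.87). Its coding sequence is identical to that of Hist1h2ao, whose row held 0 counts, and 91.0% of its 150-base windows occur in a transcript of another gene, so the row may carry reads of other H2A genes. Leaving it out moved the summed KO to WT ratio of the members from 0.52 to 0.44 (0.57 in KO replicate 1 and 0.32 in KO replicate 2).

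Hist1h2ae had 245, 412, 370 and 282 counts, and its KO and WT values overlapped (log2 fold change -0.40, SE 0.47, edgeR adjusted p = 0.916). The remaining H2A genes were weakly counted, and KO replicate 2 was the low library in most of them: Hist1h2ag had 23, 25, 16 and 1 counts. Hist1h2ab had 35, 34, 35 and 18 counts, with a log2 fold change of -0.76 (SE 0.92). Hist2h2ac on chromosome 3 had 27, 23, 11 and 9 counts, with -1.73 (SE 1.13). Both errors are large beside the differences. Hist3h2a on chromosome 11 had 10, 15, 0 and 0 counts, with WT at 11.5 times the floor of 3 counts over the KO group. Like Hist1h1t, Hist3h2a passed the count threshold through its WT counts only. Its exons overlap Trim17 on the same strand. Many of these small genes also share sequence: 23 members had 25% or more of their windows in common with a transcript of another gene, histone or not, and 15 overlapped exons of another gene. The 24 members free of both gave a summed ratio of 0.44 (0.56 and 0.33).

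In the H2B class Hist1h2bc was the most abundant and differed little, with 344, 259, 282 and 421 counts. Its KO and WT values overlapped and its log2 fold change was -0.26 (SE 0.43, edgeR adjusted p = 0.944), turning to 0.058 without WT replicate 1. Hist1h2bp had 108, 133, 26 and 8 counts, or 6.37, 7.11, 1.23 and 0.287 CPM. Here both KO embryos were far below both WT embryos, with a log2 fold change of -3.16 (SE 0.83, edgeR adjusted p = 0.387). DESeq2 gave adjusted p = 0.0245, and the alternatives ran from 0.0218 to 0.571.

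Hist1h2bj had 147, 109, 66 and 23 counts and Hist1h2bg had 82, 72, 53 and 9, a graded order in which KO replicate 1 lay between WT and KO replicate 2. Their log2 fold changes were -1.88 (SE 0.76) and -1.63 (SE 0.97), edgeR adjusted p = 0.592 and 0.769. Hist2h2be on chromosome 3, whose model holds no stem-loop, had 42, 119, 14 and 0 counts. It differed by -3.76 (SE 1.44, edgeR adjusted p = 0.571), and the alternatives ran from 0.0109 without KO replicate 1 to 0.970. Hist1h2bf, with 11, 17, 0 and 0 counts, had WT at 12.8 times the same floor, and Hist1h2ba at 4.58 times. Both genes passed the count threshold through their WT counts only.

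By summed CPM the H3 genes had the lowest KO to WT ratio of the 5 classes. Medians over tested members gave another order in KO replicate 2. There the median difference from the WT mean was -2.08 for H3, against -3.24 for H2B, -2.31 for H2A, -2.19 for H1 and -1.84 for H4. In KO replicate 1 it was -1.66 for H3 and -1.56 for H2B. Hist1h3d had 233, 277, 47 and 22 counts, or 13.7, 14.8, 2.22 and 0.789 CPM, which is 14.3 ± 0.753 in WT and 1.5 ± 1.01 in KO (SD, n = 2 each). The WT embryos were close together and both KO embryos were far below them, 9.49-fold by the group means. The log2 fold change was -3.25 (SE 0.64, edgeR adjusted p = 0.274), with DESeq2 adjusted p = 0.000279 and a range over the alternatives of 0.000251 to 0.305. It was the member that passed the threshold in the most alternatives, namely DESeq2, no low-count filter, without KO replicate 1, and the replicate block with GC and length trend removed.

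Hist1h3g had 113, 74, 27 and 33 counts, with the KO embryos level with each other and below WT, and a log2 fold change of -2.11 (SE 0.69, edgeR adjusted p = 0.513). Hist1h3e had 114, 82, 36 and 15 counts and Hist1h3c 84, 73, 36 and 31, with log2 fold changes of -2.31 (SE 0.80) and -1.65 (SE 0.70), edgeR adjusted p = 0.524 and 0.627. In all 3 genes neither KO embryo reached the lower WT embryo. Hist1h3b (25, 23, 27 and 17 counts) and Hist2h3c2 (3, 12, 9 and 10 counts) were the H3 members in which the groups overlapped.

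The H4 class held the 1 tested member with a positive fold change. Hist1h4d had 388, 271, 737 and 519 counts, or 22.9, 14.5, 34.8 and 18.6 CPM. KO replicate 1 was the highest library and KO replicate 2 lay between the WT embryos, so the groups overlapped and the log2 fold change of 0.52 (SE 0.47, edgeR adjusted p = 0.877) was within the spread of the replicates. Its estimate ran from 0.08 to 0.91 over the alternatives. No window of Hist1h4d is shared with another histone transcript.

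Hist1h4i had 279, 267, 189 and 158 counts, or 16.4, 14.3, 8.92 and 5.67 CPM. Both KO embryos lay below both WT embryos, with a log2 fold change of -1.07 (SE 0.47, edgeR adjusted p = 0.638). Hist1h4n had 155, 97, 65 and 8 counts, with KO replicate 2 far below the rest and a log2 fold change of -2.10 (SE 0.99, edgeR adjusted p = 0.682), -1.21 without KO replicate 2 and -4.53 without KO replicate 1 (edgeR adjusted p = 0.0213, the lowest of its alternatives, the highest being 0.9998). Its coding sequence is identical to that of Hist1h4m. Hist4h4, a lone H4 gene on chromosome 6, had 97, 70, 54 and 34 counts and differed by -1.33 (SE 0.71, edgeR adjusted p = 0.749).

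**Figure D3:**
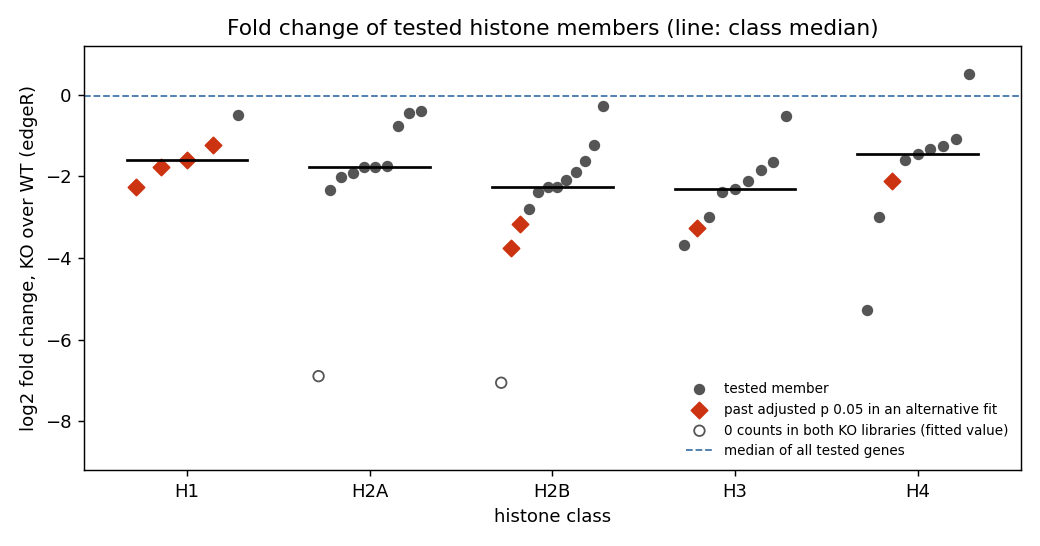
Log2 fold change, KO over WT (y axis), of the 45 tested members by histone class (x axis): diamonds passed an adjusted p of 0.05 in at least 1 alternative fit, open circles had 0 counts in both KO libraries (their fitted value is no bound), black lines are class medians and the dashed line is the median of all tested genes. Class medians were -1.61 for H1, -1.77 for H2A, -2.26 for H2B, -2.31 for H3 and -1.45 for H4, and Hist1h4d at 0.52 is the 1 point above 0.

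Members with many counts differed less than members with few. The 10 members with the most counts had a median log2 fold change of -0.79 and a summed ratio of 0.63 (0.79 in KO replicate 1 and 0.46 in KO replicate 2). The other 43 had a median of -2.10 and a ratio of 0.23 (0.34 and 0.13). The counts were used by the threshold and by the low-count filter, so this order is a description. By annotated 3′ end, tested members had a median of -1.77 where the model ended by the stem-loop (13 genes) and -1.63 where it ran past it (19 genes). The median was -2.26 where the model held none (13 genes). Most models of that last group stop at or near the stop codon, so these genes are not known to lack a stem-loop. The 17 tested members with the commonest stem-loop sequence had a median of -1.77, the 5 with the sequence printed for Hist1h3c -2.31 and the 5 with that of Hist1h4d -1.45.

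By location, the ratios rest mainly on 1 chromosome. On chromosome 13, which holds 46 members, the summed KO to WT ratio was 0.53 (0.68 in KO replicate 1 and 0.38 in KO replicate 2). It was 0.25 (0.33 and 0.16) for the 4 members on chromosome 3 and 0.18 (0.060 and 0.30) for the 2 on chromosome 11, which are few and weakly counted. H2A and H2B genes often stand head to head with a shared promoter region, and 12 such pairs had starts 176 to 306 bases apart. In the 7 pairs with both genes tested, the H2B gene had the lower log2 fold change in 5. Partners could differ: Hist1h2ae stood at -0.40 and Hist1h2bg at -1.63, Hist1h2ac at -2.02 and Hist1h2bc at -0.26, while Hist1h2ag and Hist1h2bj stood at -1.77 and -1.88.

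The machinery that transcribes histone genes and processes their mRNAs was split evenly between directions. Its 41 listed genes were all tested: 20 had a positive and 21 a negative log2 fold change, 0 were called, and the median was -0.03, the same as over all tested genes. An unadjusted p under 0.05 was reached by 3 of the 41, all higher in KO, a share close to the 7.82% of all tested genes in either direction. Lsm10 and Lsm11 are the Sm-like proteins that mark the U7 particle, and Zfp473 is the counterpart of a human zinc finger protein that binds Slbp-bound histone pre-mRNA and Lsm11.

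Lsm10 had 58.4, 60.7, 119 and 159 CPM, and both KO embryos lay above both WT embryos, with a log2 fold change of 1.22 (SE 0.33, edgeR adjusted p = 0.405, range over the alternatives 0.0430 to 0.826). Lsm11 had 15.9, 20.1, 34.7 and 50.5 CPM (1.24, SE 0.39, edgeR adjusted p = 0.491). Zfp473 had 11, 8.23, 19.9 and 28 CPM (1.32, SE 0.43, edgeR adjusted p = 0.513), with exons that overlap Vrk3 on the opposite strand. In these 3 genes both KO values lay above both WT values, as in 19.4% of all tested genes, and KO replicate 2 was the highest library. Mif4gd, a translation partner of Slbp in human, had 63.9, 110, 123 and 184 CPM, with WT replicate 2 close to KO replicate 1 (0.82, SE 0.39, edgeR adjusted p = 0.685).

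Slbp had 474, 626, 440 and 375 CPM, both KO values below both WT values by a margin smaller than the WT spread (log2 fold change -0.43, SE 0.28, edgeR adjusted p = 0.799). Npat, the coactivator that switches on histone genes downstream of cyclin E and Cdk2, had 70.7, 36.9, 81.7 and 40.8 CPM. Its groups overlapped (0.19, SE 0.47, edgeR adjusted p = 0.970), with replicate 1 high in both.

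**Figure D4:**
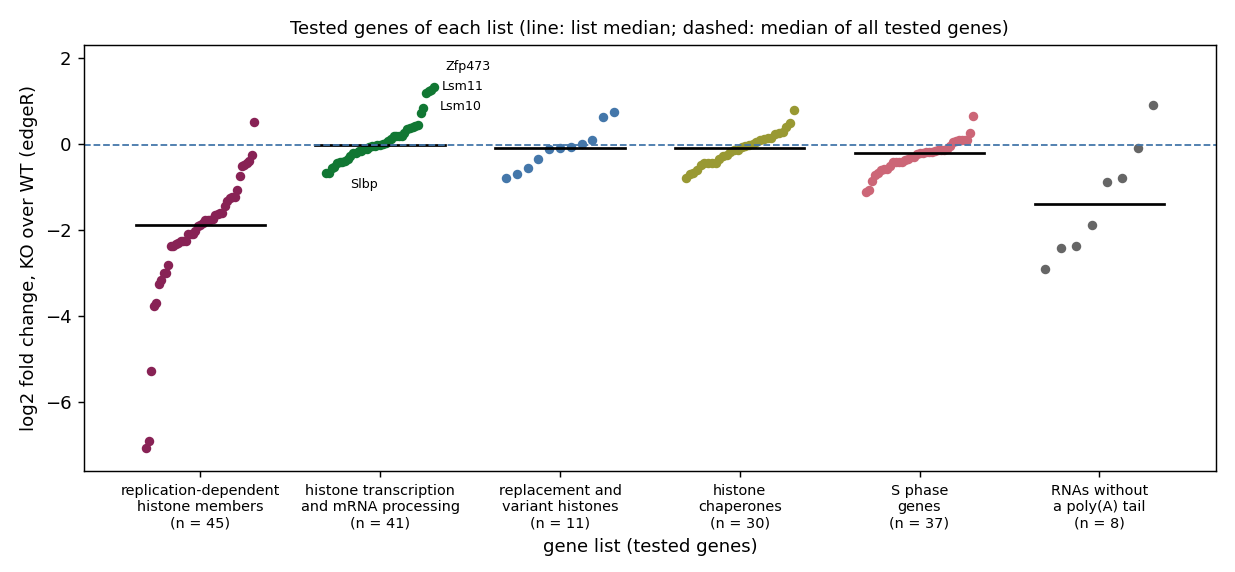
Log2 fold change, KO over WT (y axis), of each tested gene of the histone members and of 5 related lists (x axis, with the number tested), sorted within a list: black lines are list medians and the dashed line is the median of all tested genes. The median of the histone members is -1.88 and that of the RNAs without a poly(A) tail -1.39, and the medians of the other lists lie between -0.21 and -0.03.

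Replacement and variant histones, many of which are made outside S phase too and from mRNAs with a poly(A) tail, had fitted values on both sides of 0. Of 19 listed genes 11 were tested, 3 with a positive and 8 with a negative log2 fold change (52.3% of all tested genes were negative), 0 called, median -0.10. H3f3b, which encodes the replacement histone H3.3, had 2120, 2825, 1635 and 1736 CPM, with both KO embryos lower (-0.55, SE 0.26, edgeR adjusted p = 0.671). H3f3a, the other H3.3 gene, had 177, 163, 149 and 168 CPM and overlapped (-0.10, SE 0.29, edgeR adjusted p = 0.976). H2afz, which encodes H2A.Z, had 3506, 4196, 3220 and 3858 CPM and overlapped too (-0.12, SE 0.24, edgeR adjusted p = 0.962).

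H2afx, the H2A variant phosphorylated at DNA breaks, had 238, 254, 87.7 and 196 CPM, and the low library was KO replicate 1 (-0.79, SE 0.40, edgeR adjusted p = 0.723). H1f0, the replacement linker histone of differentiated cells, went the other way, with 77.5, 98.8, 137 and 157 CPM (0.74, SE 0.32, edgeR adjusted p = 0.636). H2afy2, a macroH2A gene, had 9.61, 9.30, 4.01 and 7.64 CPM (-0.70, SE 0.52, edgeR adjusted p = 0.848).

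Histone chaperones, which carry histones to and from DNA, had 30 tested genes, 11 positive and 19 negative, with a median of -0.10. Of all tested genes 52.3% were negative and 18.8% had both KO values below both WT values. Both KO values were below both WT values for Anp32e, which removes H2A.Z (270, 233, 156 and 136 CPM; -0.79, SE 0.29, edgeR adjusted p = 0.555). The same held for Hjurp, which deposits the centromeric H3 variant (80.7, 95.1, 53.9 and 56.4 CPM; -0.67, SE 0.33, edgeR adjusted p = 0.698), and for Set, an H1 and core histone chaperone (-0.46, SE 0.23, edgeR adjusted p = 0.720).

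S phase genes, which rise in the cell cycle phase in which histone mRNA is made, had a median of -0.21, with 8 of 37 tested genes positive, 29 negative and 0 called. Of all tested genes 52.3% were negative. Uhrf1, which recruits maintenance DNA methylation to new DNA, had 187, 193, 112 and 95.2 CPM (-0.88, SE 0.30, edgeR adjusted p = 0.524). The helicase subunits Mcm4 and Mcm2 differed by -0.72 and -0.60 (SE 0.29 and 0.28, edgeR adjusted p = 0.592 and 0.686). Gins3, part of the active helicase, had 21.5, 30.2, 13.8 and 10.7 CPM (-1.08, SE 0.42, edgeR adjusted p = 0.574). In each of these 4 genes, named for the smallest unadjusted p of the list, both KO values lay below both WT values. The same held in 18.8% of all tested genes.

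RNAs that normally lack a poly(A) tail were listed because the same library step decides whether they are seen. Of 21 such genes 13 had a count and 8 were tested, 1 with a positive and 7 with a negative log2 fold change, 0 called, median -1.39. Of all tested genes 52.3% were negative. Snord118, the U8 small nucleolar RNA, had 107, 81, 38 and 6 counts (-2.41, SE 0.99, edgeR adjusted p = 0.606). The telomerase RNA Terc had 11, 20, 4 and 1 counts, and the Y RNA Rny1 8, 14, 5 and 0. In these 3 RNAs both KO values were below both WT values, as in 18.7% of rows with 10 or more counts, and KO replicate 2 was the lowest library.

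The rest of that list was uneven. Rn7sk, the 7SK RNA that holds back the elongation kinase Cdk9, had 121, 45, 367 and 12 counts, with KO replicate 1 highest and KO replicate 2 lowest (0.89, SE 1.25). Rpph1, the RNA of RNase P, had 247, 8, 60 and 34 counts (-1.89, SE 1.25), and lies in exons of Ccnb1ip1 on the same strand. Rnu12 had 31, 10, 44 and 4 counts, Scarna2 23, 7, 12 and 10, and Rnu73b 15, 3, 12 and 1. Vaultrc5 had 9, 6, 8 and 2, while Rmrp, Rny3, Scarna13 and Scarna17 had at most 4 in a library. The summed CPM of the list, 34, 10.7, 26.1 and 2.51, was lowest in KO replicate 2 and put KO replicate 1 between the WT embryos. The median turned to 0.57 without WT replicate 1. The part of reads from RNA without a tail in the histone differences was not tested.

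Markers of the embryo's tissues also differed between the libraries. All 10 visceral endoderm markers, such as Apoa1 and Ttr, were tested and lower in their fitted value, against 52.3% of all tested genes. They summed to 645 and 1755 CPM in WT against 224 and 304 in KO. Of 4 markers of trophoblast giant cells, which copy their DNA without dividing, 3 were tested and higher in their fitted value, and they summed to 157 and 265 CPM against 1128 and 591, with Prl2c2 at 0. The 8 markers of extraembryonic ectoderm summed to 618 and 814 against 1356 and 823, and the 8 of epiblast to 2443 and 2279 against 1776 and 2773, so these groups overlapped or nearly met. Decidual markers summed to 19 and 27.5 against 4.11 and 3.91 CPM, with Hoxa11 at 0 in every library, and blood markers to at most 3.09 CPM in any library, with Hbb-bs and Lyz2 at 0. Their part in the histone differences was not tested.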

How the data were processed

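The deposited values were read counts per gene, whole numbers that the authors had not normalised. The submitters' processing notes list TopHat, Cufflinks and the build mm10. The sources used here do not give how reads were counted (program, strand, annotation, reads with several matches). Symbols, coordinates, overlaps and transcript sequences came from GENCODE M21, and promoters from RefSeq (GRCm38.p6).

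KO was compared with WT by edgeR 4.0.16 (R 4.3.3), as robust quasi-likelihood F tests on TMM-scaled counts of genes kept by filterByExpr (at a count of 10 and a total of 15), with Benjamini-Hochberg adjustment over all 15563 genes kept. SE is the size of the log2 fold change over the root of its F value. Of the 53 members 45 passed and 8 did not. Alternatives were DESeq2 1.42.0, limma-voom (limma 3.58.1), RLE scaling, library totals, no filter, a filter of 50 counts in 2 libraries, a GC and length trend fitted with mgcv 1.9.3, leaving out each library, and the replicate number as a block. The steps were tested on simulated data. With 2 embryos a group, p-values reflect how far these 4 animals differ, and amplified reads without molecular identifiers make count floors cover counting error only.

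Named members were the 4 with the highest mean CPM per class, the 6 per direction with the smallest unadjusted p whose groups did not overlap, any called under an alternative, and those nearest the count threshold. Of each other list up to 4 genes with the smallest unadjusted p were named, besides Slbp, Npat, H3f3a, H3f3b, H2afz, H2afx and every counted RNA without a poly(A) tail. Hist1h1t, Hist1h2ag, Hist1h2ac, Hist1h3b, Hist1h4j, Hist2h3c2 and Hist3h2a were named after their values were seen. The members, the lists and the alternatives on deeper members were chosen with earlier results of these data known.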

Additional observations from a re-analysis of the deposited data

How the results depend on the processing

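The median of the tested histone members stayed negative in every alternative. Leaving out 1 library gave -2.33 to -1.23, the latter without KO replicate 2. The summed KO to WT ratio was 0.66 without KO replicate 2 and 0.37 without KO replicate 1. With all libraries kept it was 0.44 to 0.54 under the other scalings and such choices as leaving out Hist1h2ap or members with shared sequence. Other subsets lay outside this range, such as 0.63 for the 10 members with the most counts and 0.23 for the other 43. Members called lower numbered 0 in edgeR's fit with unadjusted p under 0.05 in 18, 4 by DESeq2, 5 with no low-count filter and 0 to 6 on leaving out 1 library, 6 without KO replicate 1. Members with a positive value numbered 1 or 2 on leaving out 1 library. At 50 or more counts in 2 libraries 22 members were tested, 21 of them negative, against 52.3% of all genes tested in the main fit. Both KO lay below both WT in 26 members with 100 or more counts, in 47 under RLE scaling and in 45 under library totals, settings chosen after seeing the data. The shares of all rows are given under TMM scaling only, 17.8% of rows with 100 or more counts and 18.7% of rows with 10 or more. Over all genes, calls higher and lower were 150 and 90 by DESeq2, 157 and 101 with no low-count filter, and 14 to 133 and 1 to 209 on leaving out 1 library.

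WT and KO share replicate numbers, but the labels do not say that a number marks a litter or day, and the deviations of same-numbered samples correlated at 0.329 across genes. With the replicate block 52 genes were called higher, 19 lower and 0 members. With the replicate block and the GC and length trend removed these were 137, 82 and 3, and 1 gene each was called among the processing genes (Lsm10), the replacement histones (H2afx) and the S phase genes (Uhrf1). The member median was -2.24 with the block alone.

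Other lists moved with single libraries. Leaving out 1 library gave replacement histone medians of -0.18 to 0.068, S phase medians of -0.35 to -0.22, and medians of -3.37 to 0.57 with 0 to 1 calls for RNAs without a poly(A) tail. Directions turned on leaving out 1 library for Hist1h2bc (-0.50 to 0.058, positive without WT replicate 1), H2afz (-0.25 to 0.083, positive without WT replicate 2 at 0.023 and without KO replicate 1), H3f3a (-0.18 to 0.068, positive without KO replicate 1) and Npat (-0.32 to 0.73, negative without WT replicate 2 at -0.20 and without KO replicate 1). H3f3a was also 0.10 with the GC and length trend removed and 0.088 with the replicate block and trend. The cause was not tested. Depth limits the members with few counts, where 1 count in KO replicate 2 is 0.0359 CPM. That library had the most counts yet the fewest genes with a count, 18346. The part of this in the histone differences was not tested. Shared sequence limits the assignment of reads between copies.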
